A study of Mus musculus with 30 samples.

Results

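Wnt signaling was followed through 10 genes: the R-spondins Rspo1, Rspo3 and Rspo4, the ligand Wnt2, the receptors Fzd1 and Fzd4, the co-receptor Lrp6, the secreted antagonists Sfrp1 and Sfrp5, and the atypical cadherin Celsr2. They were taken by name from a table of 41549 genes, and all 10 were found. They were selected on their measured differences between genotypes in these libraries: Rspo4 was higher in iBAT of LFABP-/- mice, Fzd1 was lower in all 3 tissues and Celsr2 was lower in iWAT. Their differences between genotypes are therefore described below without a p-value, and calls among them are only counted. Differences between tissues were not part of that choice and were tested. Those of Rspo4, Fzd1 and Celsr2 hold the values on which these genes were selected, and are given without a p-value.

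Wnt proteins are secreted, lipid-modified ligands that bind a Frizzled receptor together with Lrp5 or Lrp6, after which beta-catenin escapes degradation and drives transcription with TCF/LEF factors. R-spondins bind Lgr4, Lgr5 and Lgr6 and remove the E3 ligases Znrf3 and Rnf43 from the cell surface, which leaves more Frizzled there, while secreted Frizzled-related proteins such as Sfrp1 and Sfrp5 bind Wnt ligands outside the cell. In adipose tissue, beta-catenin signaling holds progenitor cells back from becoming adipocytes. In liver, Wnt2 and Rspo3 from the endothelium around the central vein set the gene program of pericentral hepatocytes.

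The study compared LFABP-/- mice, which lack the liver fatty acid-binding protein encoded by Fabp1 in every cell, with WT mice. All were males on a C57Bl/6J background that ate a diet with 45 kcal % fat for 12 weeks from 2 months of age and were fasted for 4 h before tissue collection. Interscapular brown adipose tissue (iBAT), inguinal white adipose tissue (iWAT) and liver were taken from the same 5 LFABP-/- and 5 WT mice, which gave 30 RNA-seq libraries, 5 for each genotype and tissue. Values (transcripts per fixed library total) are corrected for gene length, so levels of different genes can be compared. They carry no record of read depth, so the error given is the spread over the 5 mice of a group.

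Fabp1 checked the labels: its value in liver was 0.2 to 51.8 (median 0.6) in LFABP-/- mice and 9165.5 to 12697.6 in WT mice. In iBAT it was 0.4 to 21.2 (median 13.1) in LFABP-/- and 0.2 to 8.7 (median 1.4) in WT mice, and in iWAT 0.2 to 196.1 (median 0.8) and 1.9 to 23.9 (median 20.8). Nnt, a gene that is partly deleted in C57BL/6J mice, ran from 35.4 to 44.9 in LFABP-/- liver and from 12.9 to 25.9 in WT liver. In iWAT it was 11.4 to 17.2 in LFABP-/- and 5.5 to 7.9 in WT mice, and in iBAT 0.8 to 5.3 and 0.6 to 1.8. Whether the 2 genotypes also differed in substrain was not tested. Between 16470 and 20502 genes were above 0 per library. In iBAT, the summed value of 7 hepatocyte markers was 187.2 to 1916 in LFABP-/- mice and 7.7 to 97.2 in WT mice, with no overlap, and 7 of 7 were called higher. Skeletal muscle markers in iBAT summed to between 274 and 16850 in LFABP-/- mice and between 1519 and 39310 in WT mice, and the groups overlapped. The 6 brown adipocyte markers had a mean log2 value of 9.24 to 9.86 in LFABP-/- and 7.87 to 8.47 in WT iBAT, with no overlap, and 4 of 6 were called higher (Elovl3 2.82, Dio2 2.49, Ppargc1a 1.79 and Ucp1 0.50 as log2 differences). In iWAT, lymphocyte markers were high in LFABP-/- replicates 2, 3 and 4 and in WT replicates 3 and 4. Their mean log2 value there was 4.39 to 6.04, against 0.80 to 1.36 in the others. LFABP-/- replicate 4 had the highest iWAT mean of the skeletal muscle markers (8.24). LFABP-/- replicate 1 had the highest iWAT sum of the hepatocyte markers (2225, against at most 547.2 in the others).

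The promoters of the 3 genes on which the choice rested are shown as the 250 bases before the RefSeq start (build GRCm38.p6), 5′ to 3′ on the strand of the gene. RefSeq windows were matched for 7 of the 10 genes, and those of Rspo3, Lrp6 and Sfrp1 were not. Capitals mark matches on either strand to the TCF/LEF core in its first form CTTTGA and its second form CTTTGT, the GC box GGGCGG, the CCAAT box, the TATA box TATAAA and the response element of estrogen-related receptors, TCAAGGTCA. No matches overlapped in these 3 windows. The Rspo4 window lies at chr2:151842677-151842926 on the plus strand, the Fzd1 window at chr5:4758217-4758466 on the minus strand, and the Celsr2 window at chr3:108415580-108415829 on the minus strand.
Rspo4: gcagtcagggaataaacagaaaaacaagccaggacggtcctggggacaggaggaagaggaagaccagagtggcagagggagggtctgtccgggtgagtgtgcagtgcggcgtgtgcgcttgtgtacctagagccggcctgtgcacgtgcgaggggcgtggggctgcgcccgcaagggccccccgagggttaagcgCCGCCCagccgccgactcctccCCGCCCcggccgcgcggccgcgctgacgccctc
Fzd1: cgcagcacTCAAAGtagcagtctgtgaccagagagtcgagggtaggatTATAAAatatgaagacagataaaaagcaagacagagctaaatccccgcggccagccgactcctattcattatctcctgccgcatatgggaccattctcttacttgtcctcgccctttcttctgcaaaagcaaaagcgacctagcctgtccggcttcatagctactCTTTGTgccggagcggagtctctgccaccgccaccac
Celsr2: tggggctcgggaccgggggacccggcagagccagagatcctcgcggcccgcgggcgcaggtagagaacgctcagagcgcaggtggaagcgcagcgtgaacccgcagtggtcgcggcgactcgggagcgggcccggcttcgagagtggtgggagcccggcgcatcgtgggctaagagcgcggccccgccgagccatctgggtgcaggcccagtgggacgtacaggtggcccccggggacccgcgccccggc

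The Rspo4 window held 69.6% G and C and 2 GC boxes, both on the reverse strand, which began 55 and 33 bases before the start. The Fzd1 window held 51.2% G and C, CTTTGT at 37 bases and CTTTGA on the reverse strand at 242 bases before the start, and TATAAA at 202 bases. The RefSeq start of Fzd1 lies 181 bases upstream of its Ensembl gene start, so none of these positions refers to the Ensembl model. The Celsr2 window held 75.2% G and C and no match. Of 32851 mouse promoter windows of the same length, 27.6% held at least 1 TCF/LEF core in either form, 32.7% a GC box, 33.9% CCAAT, 12.4% TATAAA and 0.39% TCAAGGTCA, and the median was 52.4% G and C. A match or its absence is only a description of these letters.

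Rspo4 (chr2:151842927-151874668) encodes a secreted R-spondin. In iBAT its values were 10, 14, 10.5, 10.8 and 14.5 in LFABP-/- mice and 2.1, 1.4, 2.1, 1.6 and 0.6 in WT mice. The lowest LFABP-/- mouse was 7.9 above the highest WT mouse. The means were 12.0 ± 2.12 and 1.56 ± 0.619 (SD, n = 5 each), a ratio of 7.67, and the log2 difference of LFABP-/- minus WT was 2.64 on the log2(value + 0.5) scale used throughout. Rspo4 was listed at 0.0 in every LFABP-/- iWAT and liver library and at 0.0 or 0.1 in the WT ones. Hepatocyte markers summed to 187.2 to 1916 in LFABP-/- iBAT and to 7.7 to 97.2 in WT iBAT. The brown adipocyte markers were also higher in LFABP-/- iBAT. The part of either in the Rspo4 difference was not tested. Over all alternatives the difference stayed between 2.36 and 3.07, but these reuse the values on which Rspo4 was selected and are no independent support. In bulk tissue, fewer cells of a type and less RNA per cell cannot be told apart, here and below.

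**Figure D1:**
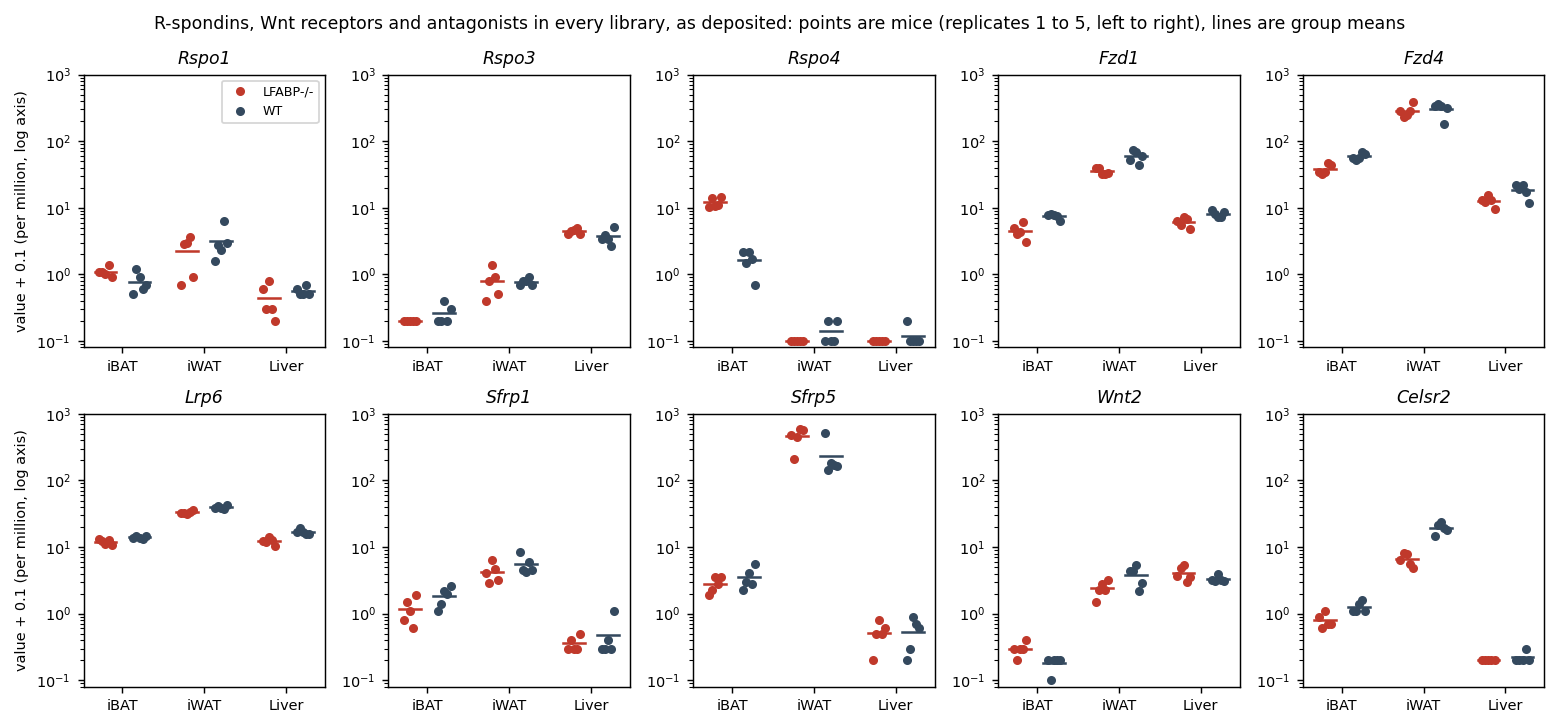
Value of each of the 10 genes in all 30 libraries, as deposited, plus 0.1 on a log axis; each point is a mouse, in replicate order, and each line a group mean, with LFABP-/- left of WT in each tissue. Rspo4 lies between 10 and 14.5 in LFABP-/- iBAT and between 0.6 and 2.1 in WT iBAT, and at 0.0 or 0.1 in iWAT and liver.

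Rspo3 is the R-spondin of the central vein endothelium. In liver it was 4.0, 4.4, 4.6, 4.8 and 4.0 in LFABP-/- mice and 3.3, 3.8, 3.3, 2.6 and 5.1 in WT mice, so the groups overlapped and WT replicate 5 was the highest of all 10. The means were 4.36 ± 0.358 and 3.62 ± 0.931 (SD, n = 5 each; log2 difference 0.26). In iWAT it was 0.3 to 1.3 in LFABP-/- and 0.6 to 0.8 in WT mice, and in iBAT 0.1 in all LFABP-/- and 0.1 to 0.3 in WT mice. Rspo1 was highest in iWAT, at 0.6, 2.8, 2.9, 3.6 and 0.8 in LFABP-/- mice and 1.5, 2.7, 2.2, 6.3 and 2.9 in WT mice. The 3 highest LFABP-/- values, and the highest WT value, belong to libraries with high lymphocyte markers. WT replicate 3, also with high lymphocyte markers, was at 2.2, below WT replicates 2 (2.7) and 5 (2.9). In the libraries with low lymphocyte markers the log2 difference was -1.22, against -0.52 in all 10. The part of these cells in the Rspo1 values was not tested. In iBAT Rspo1 was 0.8 to 1.3 in LFABP-/- and 0.4 to 1.1 in WT mice, and in liver 0.1 to 0.7 and 0.4 to 0.6.

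Wnt2, the only Wnt ligand among the 10, was found in liver and iWAT. Its liver values were 3.6, 4.7, 5.2, 2.9 and 3.4 in LFABP-/- mice and 3.1, 3.0, 3.9, 3.1 and 3.0 in WT mice (log2 difference 0.24). The groups overlapped, and the WT mice other than replicate 3 lay within 3.0 to 3.1. In iWAT it was 1.4, 2.2, 2.7, 2.2 and 3.1 in LFABP-/- mice and 4.3, 4.2, 5.2, 2.1 and 2.8 in WT mice (log2 difference -0.56). The mice can be split by whether their iBAT and liver library names begin with G30 or G32. The iWAT names do not follow this split, since those of all 5 WT mice begin with G30, and the labels do not say what the prefix stands for. In the G30 mice, Wnt2 in iWAT was 1.4 to 2.2 in 2 LFABP-/- and 4.2 to 5.2 in 3 WT mice (log2 difference -1.16), and in the G32 mice it was 2.2 to 3.1 in 3 LFABP-/- and 2.1 to 2.8 in 2 WT mice (0.10). In iBAT, Wnt2 did not exceed 0.3 in any library.

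Fzd1 (chr5:4753839-4758035) encodes a Frizzled receptor and was lower in LFABP-/- mice in each tissue. In iWAT, where it was most abundant, it was 38.9, 39.3, 32.3, 32.4 and 33.0 in LFABP-/- mice and 51.4, 74.3, 67.6, 43.7 and 60.7 in WT mice. The groups were 4.4 apart, and the LFABP-/- mean was 59.1% of the WT mean (35.2 ± 3.59 and 59.5 ± 12.3, SD, n = 5 each). In iBAT it was 4.8, 3.9, 4.3, 6.1 and 3.0 in LFABP-/- mice and 7.8, 7.9, 7.8, 7.3 and 6.3 in WT mice. These groups also did not overlap, by 0.2 only, and the LFABP-/- mean was 59.6% of the WT mean. In liver, 6.2, 5.4, 7.2, 6.7 and 4.7 in LFABP-/- mice overlapped with 9.3, 7.9, 7.2, 7.1 and 8.4 in WT mice, and the LFABP-/- mean was 75.7% of the WT mean. The log2 differences were -0.71 in iBAT, -0.73 in iWAT and -0.38 in liver. Leaving out 1 mouse kept them at -0.83 to -0.60, -0.84 to -0.65 and -0.44 to -0.30. In the G30 mice and in the G32 mice taken alone the difference was negative in each tissue (-0.79 and -0.60 in iBAT, -0.70 and -0.65 in iWAT, -0.45 and -0.32 in liver). All of these reuse the values on which Fzd1 was selected, so the shared sign is no independent support.

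Fzd4, a Frizzled that also binds the ligand norrin in endothelium, was the most abundant Frizzled of every group. In iBAT it was 34.4, 32.2, 34.7, 46.8 and 44.3 in LFABP-/- mice and 54.9, 52.9, 56.5, 69.1 and 63 in WT mice, with the groups 6.1 apart and the LFABP-/- mean at 64.9% of the WT mean (log2 difference -0.63). In iWAT it was 285.4, 227.7, 247.4, 281 and 390.6 in LFABP-/- mice and 338.6, 362.8, 334.8, 183.4 and 309.3 in WT mice (-0.08). These overlapped, with log2 differences of -0.44 in the G30 mice and 0.34 in the G32 mice. In liver it was 13, 12, 15.7, 13.2 and 9.5 in LFABP-/- mice and 21.9, 18.9, 21.5, 17.1 and 11.6 in WT mice (-0.49). Only the lowest WT mouse fell within the LFABP-/- range there. Of 9 endothelial markers tested in iBAT, 4 were called lower, beside 25.5% of all genes tested, and Cldn5 went the other way (0.55, not called). Their sums overlapped, with 158.8 to 321.5 in LFABP-/- and 205.9 to 302.3 in WT mice. The part of endothelial cells in the Fzd4 values was not tested.

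Lrp6 encodes the co-receptor that pairs with Frizzled. It was 12.9, 12.4, 11.2, 12.6 and 10.6 in LFABP-/- iBAT and 13.8, 14.5, 13.8, 13.3 and 14.8 in WT iBAT. In iWAT it was 32.7, 32.8, 31.2, 33.3 and 35.6 in LFABP-/- and 38.3, 41.4, 38.4, 36.8 and 42.5 in WT mice. In liver it was 12.3, 11.7, 14.2, 12.7 and 10.4 in LFABP-/- and 16.5, 19.3, 16.7, 15.8 and 15.4 in WT mice. Lrp6 was thus the 1 gene of the 10 in which every LFABP-/- library lay below every WT library in all 3 tissues, although the gaps were small (0.4, 1.2 and 1.2). Over all genes tested, 14.3% lay wholly below WT in iBAT, 1.66% in iWAT and 8.63% in liver. The share that did so in all 3 tissues at once was not computed, and the Lrp6 difference in iWAT was not called. The LFABP-/- means were 85%, 83.9% and 73.2% of the WT means in iBAT, iWAT and liver. Its paralog Lrp5 was 32.2, 28.4, 24.5, 23 and 22.7 in LFABP-/- liver and 25.4, 30.6, 27, 23.4 and 27.8 in WT liver, and the groups overlapped.

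Sfrp5, an adipocyte-secreted antagonist, was abundant in iWAT only. There it was 483.8, 206.5, 445.5, 583.9 and 579.9 in LFABP-/- mice and 517.2, 143.0, 184.2, 171.0 and 164.8 in WT mice. WT replicate 1 stood apart from the other WT mice, and LFABP-/- replicate 2 from the other LFABP-/- mice. Epithelial markers summed to 163.6 in WT replicate 1 and 109.7 in LFABP-/- replicate 3, and to at most 9.7 in the other iWAT libraries. Brown adipocyte markers summed to 1676 in LFABP-/- replicate 2 and to at most 165 in the others. The part of these cells in the Sfrp5 values was not tested. The Sfrp5 means were 460 ± 154 and 236 ± 158 (SD, n = 5 each), with a log2 difference of 1.06. It was 0.92 without WT replicate 2 and 1.39 without WT replicate 1, and 0.40 in the G30 mice and 1.66 in the G32 mice. In iBAT Sfrp5 was 1.8 to 3.5 in LFABP-/- and 2.2 to 5.5 in WT mice, and in liver 0.1 to 0.7 and 0.1 to 0.8. Sfrp1 was 2.8 to 6.2 in LFABP-/- and 4.1 to 8.2 in WT iWAT, 0.5 to 1.8 and 1.0 to 2.5 in iBAT, and 0.2 to 0.4 and 0.2 to 1.0 in liver. Its groups overlapped in every tissue.

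Celsr2 (chr3:108390851-108415552) encodes a seven-pass cadherin of the planar cell polarity pathway, the beta-catenin-independent branch. In iWAT it was 6.3, 8.1, 7.9, 5.4 and 4.8 in LFABP-/- mice and 14.7, 21.3, 23.8, 19 and 17.8 in WT mice. The groups were 6.6 apart, and the means were 6.50 ± 1.47 and 19.3 ± 3.46 (SD, n = 5 each), so that the LFABP-/- mean was 33.6% of the WT mean (log2 difference -1.51). The difference was -1.39 in the G30 mice and -1.56 in the G32 mice, and -1.60 in the libraries with low lymphocyte markers. These reuse the values on which Celsr2 was selected and are no independent support. In iBAT Celsr2 was 0.8, 0.5, 1.0, 0.6 and 0.6 in LFABP-/- mice and 1.0, 1.0, 1.3, 1.5 and 1.0 in WT mice, and in liver it was 0.1 in all LFABP-/- and 0.1 to 0.2 in WT mice. Fibroblast and progenitor markers in iWAT summed to 1419 to 2044 in LFABP-/- and 1922 to 3455 in WT mice, with 2 of 12 called lower, and Schwann cell and nerve markers to 100.0 to 247.5 and 205.7 to 305.7, with 0 of 6 tested called. Their part in the Celsr2 and Fzd1 values of iWAT was not tested.

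**Figure D2:**
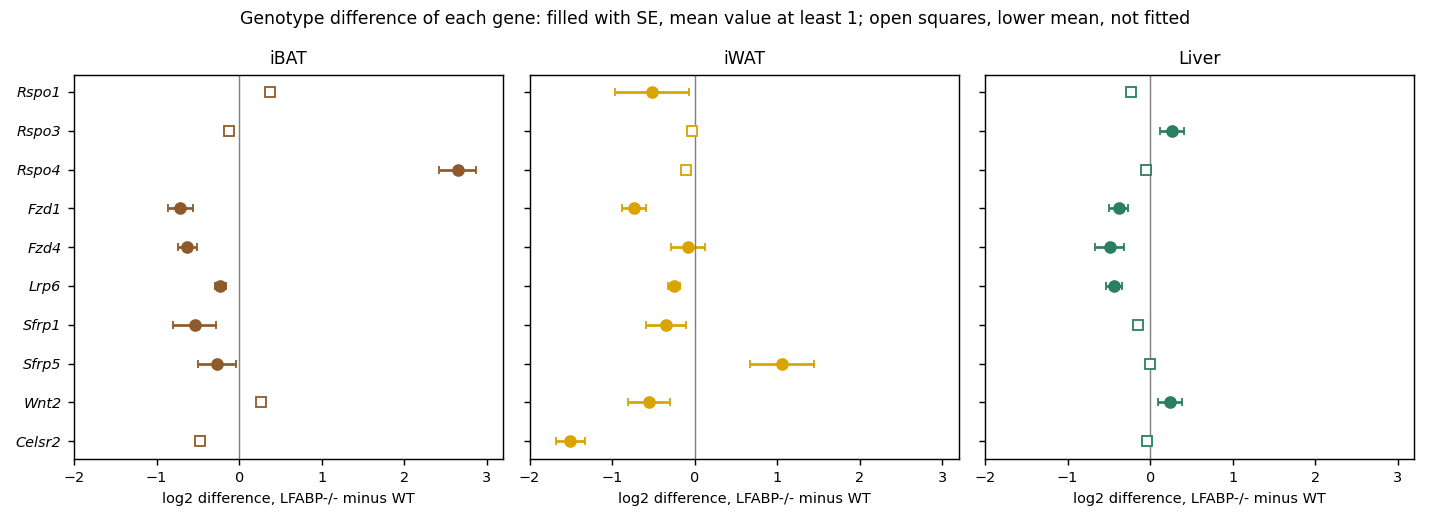
Log2 difference of LFABP-/- minus WT for each gene in iBAT, iWAT and liver, on the log2(value + 0.5) scale; filled circles with 1 SE are genes whose mean in the tissue reached 1, open squares those below it. Rspo4 stands at 2.64 in iBAT, Celsr2 at -1.51 in iWAT and Sfrp5 at 1.06 in iWAT, while Fzd1 and Lrp6 lie below 0 in each tissue.

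Genotypes were compared within each tissue by a limma fit over every gene whose mean reached 1 there, with calls at a Benjamini-Hochberg adjusted p under 0.1. In iBAT, 6 of the 10 genes reached that mean, and 4 were called, 1 higher (Rspo4) and 3 lower (Fzd1, Fzd4 and Lrp6) in LFABP-/- mice, where 47.8% of all genes tested were called (22.3% higher, 25.5% lower). In iWAT 8 reached it and 2 were called, both lower (Fzd1 and Celsr2), against 1.45% of all genes tested (0.682% higher, 0.770% lower). In liver 5 reached it and 2 were called, both lower (Fzd1 and Lrp6), against 16.9% of all genes tested (3.08% higher, 13.9% lower; 1091 genes higher and 922 lower under median-ratio scaling, instead of 358 and 1611). These calls come from the contrasts on which the genes were selected. Nothing is read from them, nor from the number of alternatives that kept them. In iBAT, Rspo4 stayed called in 19 of 19 alternatives, and Fzd1, Fzd4 and Lrp6 in all but the one with the hepatocyte covariate. In iWAT, Celsr2 stayed called in 19 of 20, but not in the libraries with low lymphocyte markers. Fzd1 stayed called there in 9 of 20 and lost its call under median-ratio scaling, with the skeletal muscle covariate, in the libraries with low lymphocyte markers and without any 1 LFABP-/- mouse or WT replicate 2, 3 or 5. In liver, Lrp6 stayed called in 17 of 17 alternatives. Fzd1 did so in 8 of 17, and lost its call with no filter, with the replicate block, under either rescaling and without LFABP-/- replicate 1, 2 or 5 or WT replicate 1 or 2. The 11 cases below the filter were Rspo1, Rspo3, Wnt2 and Celsr2 in iBAT, Rspo3 and Rspo4 in iWAT, and Rspo1, Rspo4, Sfrp1, Sfrp5 and Celsr2 in liver.

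Levels in the 3 tissues were compared next, over the 10 mice that gave all of them. Mitochondrially encoded genes held 53.3% to 60.1% of the value in iBAT and 12.1% to 20.6% in iWAT and liver, so each library was rescaled to the same total without them. One limma fit then took all 30 libraries, with mouse as a blocking factor, and calls needed both an adjusted p under 0.1 and a log2 difference beyond 1. All 10 genes passed the filter over the 30 libraries. All but Fzd1, Fzd4 and Lrp6 had a deposited mean under 1 in at least 1 tissue and passed through the tissues in which they were high. The filter thus favoured that pattern. The differences of these genes are therefore given without p-values, and their calls are no independent support for it. The median gene was -0.53 in iBAT minus iWAT, -0.78 in liver minus iBAT and -1.30 in liver minus iWAT, and differences are to be read relative to these. These medians were near 0 under median-ratio scaling (-0.02, -0.01 and 0.01), a shift of 0.50, 0.82 and 1.31. Called genes were 39.4% of 14585 in iBAT minus iWAT (8.52% higher, 30.8% lower), 53.7% in liver minus iBAT (12.2% higher, 41.5% lower) and 71.0% in liver minus iWAT (9.26% higher, 61.7% lower).

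Rspo4 was a brown fat transcript in these mice. Its differences, given without a test because they hold the LFABP-/- iBAT values on which it was selected, were 4.32 in iBAT minus iWAT and -4.35 in liver minus iBAT. Within WT mice alone they were 2.85 and -2.92. Rspo3 was the liver R-spondin: it exceeded iBAT by 2.70 (95% interval 2.43 to 2.97) and iWAT by 1.99 (1.73 to 2.26), in 10 of 10 mice each. It passed the filter through liver, so these values describe that pattern only. Rspo1 was lower in liver than in iWAT (-1.76, -2.24 to -1.28) and than in iBAT (-1.32, -1.80 to -0.84), but was not called in either contrast under median-ratio scaling (-0.76 and -0.73). Its difference of iBAT minus iWAT was -0.43 (-0.91 to 0.05).

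Wnt2 was higher in liver than in iBAT (2.54, 2.25 to 2.84) and lower in iBAT than in iWAT (-2.28, -2.58 to -1.99). Between liver and iWAT it differed by 0.26 (-0.03 to 0.55, 7 of 10 mice), which was not called, but reached 1.39 and was called under median-ratio scaling, and turned to -0.18 within WT mice.

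Both Frizzled receptors were highest in iWAT. Fzd1 was lower in iBAT (-2.0) and in liver (-2.66) than in iWAT, in 10 of 10 mice. These are given without a p-value, since they hold values on which Fzd1 was selected. Fzd4 fell in the order iWAT, iBAT, liver, with -1.65 (-1.92 to -1.38, adjusted p = 6.25e-12) in iBAT minus iWAT and -2.61 (-2.88 to -2.34, adjusted p = 8.23e-17) in liver minus iBAT. Lrp6 was not called in iBAT minus iWAT (-0.52, beside -0.53 for the median gene). It was lower in liver than in iWAT (-1.33, -1.44 to -1.22, adjusted p = 3.96e-19), which became 0.02 under median-ratio scaling. In liver minus iBAT, Fzd1 (-0.66) and Lrp6 (-0.81) were not called, and their signs flipped to 0.26 and 0.14 in the values as deposited and to 0.17 and 0.04 under median-ratio scaling.

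Both antagonists and Celsr2 were highest in iWAT. Sfrp5 averaged 3.09 ± 1.08 in iBAT, 0.43 ± 0.241 in liver and 348 ± 188 in iWAT as deposited (SD, n = 10 mice), with log2 differences of -5.61 (-6.08 to -5.14) in iBAT minus iWAT and -8.53 (-9.00 to -8.07) in liver minus iWAT. Celsr2 was lower in iBAT (-2.42) and in liver (-4.46) than in iWAT, given without a p-value because its iWAT values led to its selection. Sfrp1 was lower in liver than in iWAT (-2.82) and than in iBAT (-2.06), and was not called in iBAT minus iWAT (-0.76, -1.16 to -0.36).

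**Figure D3:**
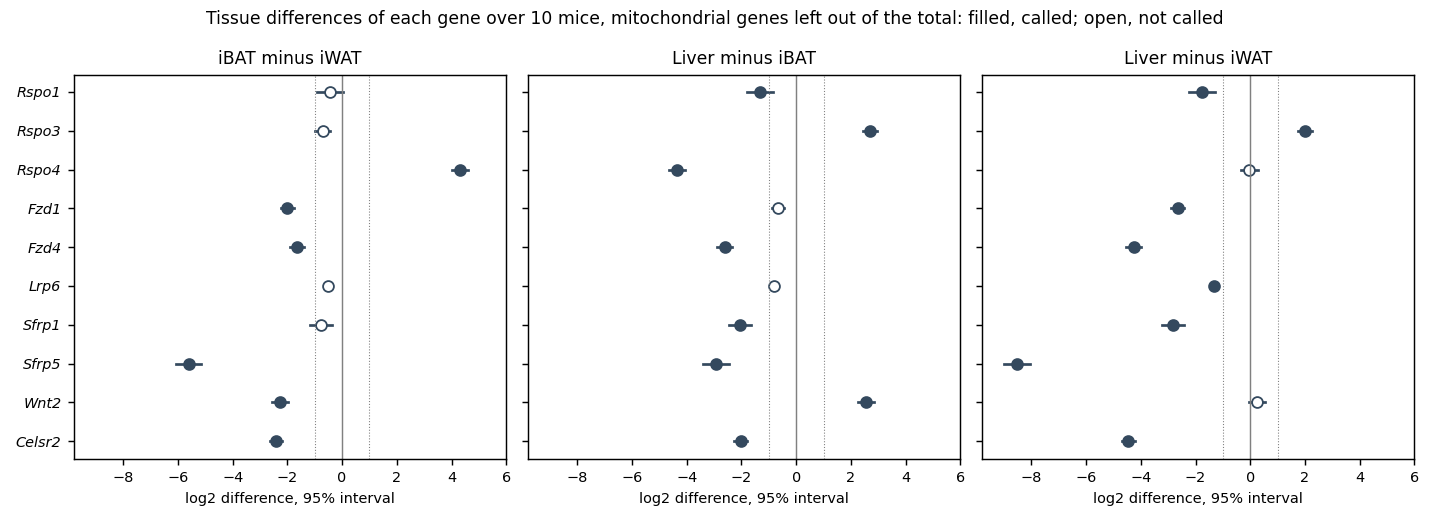
Tissue differences of each gene over 10 mice (log2, with 95% interval), after rescaling without mitochondrially encoded genes. Filled circles are called, open ones not, and dotted lines mark a log2 difference of 1. Intervals and fills are drawn for every gene, but are read as tests only for Fzd4 and Lrp6. Rspo4 stands at 4.32 in iBAT minus iWAT and Rspo3 at 2.70 in liver minus iBAT, while Sfrp5 reaches -8.53 in liver minus iWAT; Fzd1 and Lrp6 change sign with the scaling in liver minus iBAT.

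In the order of levels over the 6 groups, neighbouring groups overlapped most for Rspo1, where all 5 steps did. For Rspo4 the order was LFABP-/- iBAT, then WT iBAT, then the remaining groups, which could not be told apart from each other. For Celsr2, LFABP-/- iWAT (4.8 to 8.1) lay below WT iWAT and above WT iBAT (1.0 to 1.5) without overlap on either side. Fzd1 in LFABP-/- iWAT (32.3 to 39.3) likewise lay between WT iWAT and WT liver (7.1 to 9.3), while the liver and iBAT groups overlapped with their neighbours.

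Within each family, the share of a gene in the summed value does not depend on how the libraries are scaled. Rspo4 made up 91.4% ± 2.20 of the 4 R-spondins in LFABP-/- iBAT and 63.2% ± 15.1 in WT iBAT (SD, n = 5 each), and their summed value was 13.1 ± 2.04 and 2.4 ± 0.663. In iWAT, Rspo1 led with 72.2% ± 7.17 in LFABP-/- and 78.3% ± 6.67 in WT mice, and in liver Rspo3 led with 93.0% ± 4.80 and 87.7% ± 4.64. Rspo2 was at most 0.1 in any library. The family was thus led by a different gene in each tissue, in both genotypes.

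Fzd4 made up 64.4% ± 3.59 of the 10 Frizzleds in LFABP-/- iBAT and 64.7% ± 4.32 in WT iBAT, while their summed value was 59.5 ± 7.24 and 91.5 ± 7.13. In iWAT, Fzd1 took 9.99% ± 2.25 in LFABP-/- and 14.7% ± 1.85 in WT mice, and Fzd4 78.6% ± 3.14 and 74.2% ± 3.03. In liver the family was spread over Fzd4, Fzd8, Fzd7 and Fzd1, with 28.8%, 26.4%, 20.5% and 13.7% in LFABP-/- mice and 31.0%, 23.2%, 19.3% and 14.2% in WT mice. Lrp6 made up 32.1% ± 3.94 of the sum of Lrp5 and Lrp6 in LFABP-/- liver and 38.4% ± 1.75 in WT liver. Sfrp5 held 93.5% ± 2.11 of the secreted Frizzled-related family in LFABP-/- iWAT and 81.9% ± 7.41 in WT iWAT, where Sfrp2 held 4.77% ± 1.80 and 13.1% ± 6.15. Celsr2 held 72.4% ± 15.4 of the 3 Celsr genes in LFABP-/- iWAT and 89.4% ± 10.7 in WT iWAT, and in liver Celsr1 held 97.8% and 97.3%. Wnt2 held 36.3% ± 7.20 of the 19 Wnt ligands in LFABP-/- liver and 27.5% ± 2.58 in WT liver.

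**Figure D4:**
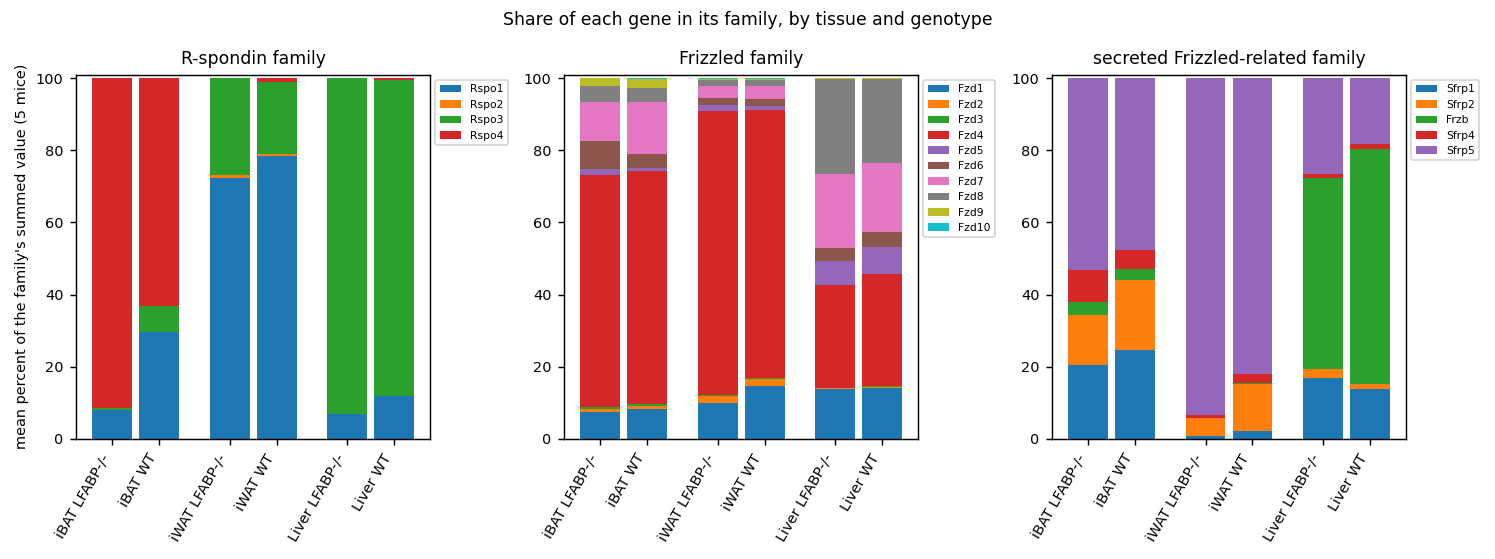
Mean share of each gene in the summed value of its family (percent, 5 mice per bar), for the R-spondin, Frizzled and secreted Frizzled-related families, with LFABP-/- left of WT in each tissue. Rspo4 fills 91.4% of the LFABP-/- iBAT bar and 63.2% of the WT iBAT bar, Rspo1 leads in iWAT and Rspo3 in liver, and Fzd4 leads the Frizzleds throughout.

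The rest of the pathway was described from lists of genes by role, none of them among the 10, each tested between genotypes in the fit of all genes. In iBAT, where 22.3% of all genes tested were called higher and 25.5% lower, 2 of 3 other Wnt ligands tested fell in LFABP-/- mice. Wnt11 was 2.3, 1.3, 2.4, 1.7 and 2.0 in LFABP-/- and 2.3, 2.7, 4.2, 2.6 and 2.7 in WT mice (log2 difference -0.48, adjusted p = 0.0447). Wnt5a, a beta-catenin-independent ligand, averaged 2.84 ± 0.706 in LFABP-/- and 3.82 ± 0.507 in WT mice (-0.39, adjusted p = 0.0726), a call lost without LFABP-/- replicate 4 or WT replicate 1, 2 or 3, with no filter, under median-ratio scaling and with the replicate block. Porcn, the acyltransferase that makes Wnt proteins secretable, fell in 1 of 2 genes tested of its list, with 3.2 to 4.0 in LFABP-/- and 4.2 to 5.4 in WT mice (-0.39, adjusted p = 0.00725). The list medians were -0.39 and -0.23, beside -0.03 over all genes tested in iBAT.

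Of 8 other Frizzleds and co-receptors tested in iBAT, Fzd7 and Fzd8 fell and none rose, a share close to the 25.5% of all genes called lower. Fzd7 was 5.7, 5.4, 6.9, 5.2 and 8.6 in LFABP-/- mice and 9.6, 20.3, 10.3, 11 and 14.3 in WT mice (-0.96, adjusted p = 0.00511), with no overlap. Fzd8 was 2.1 to 3.5 in LFABP-/- and 2.9 to 4.3 in WT mice (-0.40, adjusted p = 0.0312). Lgr4, the receptor of R-spondins, fell to 3.5 to 5.8 in LFABP-/- iBAT, against 5.1 to 8.3 in WT iBAT (-0.48, adjusted p = 0.0461, not called without LFABP-/- replicate 1 or WT replicate 4). Znrf3, the E3 ligase that R-spondins remove, was 1.9 to 3.0 in LFABP-/- and 1.8 to 2.4 in WT iBAT and was not called, and Lgr5 was at 0.0 in every iBAT library. None of 4 other antagonists tested was called.

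Of 7 other planar cell polarity genes tested in iBAT, 3 fell, beside 25.5% of all genes. Markers of other cells fell in iBAT too, 4 of 4 Schwann cell and nerve markers and 4 of 11 fibroblast and progenitor markers tested, and their part in the receptor and polarity genes was not tested. Prickle3, a cytoplasmic component of the pathway, was 3.3, 3.3, 4.9, 4.5 and 4.1 in LFABP-/- mice and 8.1, 7.8, 6.7, 8.8 and 7.2 in WT mice (-0.87, adjusted p = 0.000438). Its paralog Prickle1 averaged 2.46 ± 0.658 in LFABP-/- and 3.92 ± 0.286 in WT mice (-0.60, adjusted p = 0.00604). The third, Fuz, averaged 5.86 ± 0.770 in LFABP-/- and 7.14 ± 0.581 in WT mice (-0.27, adjusted p = 0.0384).

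Among 23 cytosolic and nuclear genes of the pathway in iBAT, 4 rose and 5 fell, with a median of 0.01, beside 22.3% and 25.5% of all genes, so the list held no more calls than the background. The kinase genes Csnk1a1 (30.8 to 35.4 in LFABP-/-, 20.9 to 27.5 in WT, 0.47, adjusted p = 0.00132) and Csnk1d (31.8 to 40.0 in LFABP-/-, 25.4 to 28.8 in WT, 0.34, adjusted p = 0.00319) rose. Csnk1a1 primes beta-catenin for degradation. Bcl9, a beta-catenin co-activator (0.9 to 1.3 in LFABP-/-, 1.6 to 1.8 in WT, -0.45, adjusted p = 0.00351), and Tcf7l2, a TCF/LEF factor (0.8 to 1.1 in LFABP-/-, 1.2 to 1.5 in WT, -0.35, adjusted p = 0.0148), fell.

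Of 4 general beta-catenin target genes tested in iBAT, 1 fell and 1 rose, beside 25.5% and 22.3% of all genes, so the list held no more calls than the background. Axin2, a feedback inhibitor often read as a measure of beta-catenin activity, was 3.6, 4.2, 5.1, 5.8 and 3.8 in LFABP-/- mice and 9.7, 6.7, 7.2, 6.8 and 5.9 in WT mice (-0.64, adjusted p = 0.0077). Every LFABP-/- value of Axin2 lay below every WT value, as was so for 14.3% of all genes tested in iBAT. Ccnd1, which encodes cyclin D1, was 11.9, 8.5, 8.0, 9.0 and 6.5 in LFABP-/- mice and 7.2, 4.8, 3.4, 2.7 and 2.8 in WT mice (1.05, adjusted p = 0.00761), with overlap of the lowest LFABP-/- and the highest WT mouse.

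Genes of hepatocytes rose in LFABP-/- iBAT on both sides of the liver lobule, 8 of 13 pericentral genes tested (2 fell) and 11 of 13 periportal genes (none fell), together with the 7 hepatocyte markers. Pericentral Rgn was 1.4 to 20.8 in LFABP-/- and 0.0 to 0.9 in WT iBAT (log2 difference 3.17). Periportal Cps1, the first enzyme of the urea cycle, was 2.4 to 18.3 and 0.0 to 0.8 (3.44). Both passed the filter only through the LFABP-/- mice, which favours a higher call, so no p-value is given. The counts above include such genes and are a description only. Glul, glutamine synthetase, which iBAT itself expresses, fell to 553.2 to 668.8 in LFABP-/- iBAT, against 787.4 to 1042.2 in WT iBAT (-0.67, adjusted p = 0.000395). With the mean of the hepatocyte markers as a covariate, chosen after seeing the data, 485 genes instead of 5556 were called in iBAT. Of the 41 calls in these lists only that of Aldh1b1, an aldehyde dehydrogenase on the pericentral list, remained. Its values were 4.0 to 13.5 in LFABP-/- and 0.1 to 0.4 in WT iBAT, so it too passed the filter only through the LFABP-/- mice. The hepatocyte term and the genotype cannot be told apart there, since the marker means (log2 value 4.08 to 7.36 in LFABP-/-, 0.34 to 3.15 in WT) do not overlap.

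In iWAT, the lists held 1 call. Cyp2f2, a periportal hepatocyte gene, fell to 7.3 to 24.7 in LFABP-/- mice, against 47.7 to 200.8 in WT mice (-2.90, adjusted p = 0.0192), and was not called in the libraries with low lymphocyte markers (adjusted p = 0.314). None of the 14 other Frizzleds and co-receptors, 10 antagonists, 14 planar cell polarity genes, 23 cytosolic and nuclear genes and 9 target genes tested was called in iWAT, where 213 genes were called in all. Axin2 was 6.6, 13.2, 17, 14.9 and 11 in LFABP-/- and 8.5, 5.5, 9.8, 12.3 and 3.7 in WT iWAT and was not called.

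In liver, where 13.9% of all genes tested were called lower, 2 of 9 other Frizzleds and co-receptors tested fell, Fzd5 (1.8 to 4.2 in LFABP-/-, 3.4 to 5.0 in WT, -0.54, adjusted p = 0.078) and Adgra2 (2.2 to 3.0 in LFABP-/-, 3.0 to 5.1 in WT, -0.40, adjusted p = 0.0934). Lgr4 was 18.5, 18.2, 19.8, 20.2 and 19 in LFABP-/- liver and 24.5, 27.9, 27.5, 24.8 and 21.1 in WT liver (-0.38, adjusted p = 0.0242), with no overlap (adjusted p = 0.114 under median-ratio scaling, not called). Dact1, an intracellular antagonist, averaged 2.42 ± 0.455 in LFABP-/- and 4.44 ± 1.62 in WT mice (-0.71, adjusted p = 0.052). Of 22 cytosolic and nuclear genes 4 fell and none rose, a share near that over all genes: Ctnnbip1, an inhibitor of beta-catenin (-0.39, adjusted p = 0.0457), and Apc, Tnks and Axin1 of the beta-catenin destruction machinery (-0.34, -0.34 and -0.38, adjusted p = 0.0549, 0.0553 and 0.0653). Their list median was -0.18, beside -0.10 over all genes tested in liver. Without WT replicate 2, Fzd5, Adgra2, Ctnnbip1, Apc, Tnks and Axin1 were no longer called (adjusted p 0.116 to 0.209). With each of the 10 mice left out in turn, Fzd5 and Adgra2 stayed called in 2 fits each, Axin1 in 5, Tnks in 6, Apc and Dact1 in 7 and Ctnnbip1 in 8. Under median-ratio scaling Fzd5, Adgra2, Apc and Tnks also lost their calls.

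Pericentral hepatocyte genes, the program that Wnt2 and Rspo3 maintain, were measured with 20 genes in liver, of which 3 rose and none fell, with a median of 0.27, beside 3.08% of all genes called higher. That share depends on the scaling, since 1091 genes were called higher under median-ratio scaling, instead of 358. Lect2, a secreted chemotactic factor, was 221.6, 228.0, 270.9, 251.3 and 242.6 in LFABP-/- mice and 207.4, 104.0, 177.4, 193.5 and 129.0 in WT mice (0.62, adjusted p = 0.0494). Oat, ornithine aminotransferase, was 1024.5 to 1284.9 in LFABP-/- and 306.4 to 945.0 in WT mice (0.87, adjusted p = 0.0677). Glul was 712.2 to 992.2 in LFABP-/- and 388.4 to 723.5 in WT mice (0.48, adjusted p = 0.098). The low WT values of all 3 genes came from replicates 2 and 5, and without WT replicate 2 Oat (adjusted p = 0.170) and Glul (adjusted p = 0.218) were not called. WT replicate 5 also had the highest liver sums of fibroblast and progenitor markers (278.9, against at most 134.8) and of lymphocyte markers (23.4, against at most 9.8). The part of these cells in the hepatocyte genes was not tested. With each mouse left out in turn, Lect2 stayed called in 8 of 10 fits, Oat in 4 and Glul in 3. Cyp2e1, a pericentral cytochrome, was 5009.1 to 7339.2 in LFABP-/- and 2266.3 to 7867.9 in WT mice and was not called. Among 16 periportal genes 1 was called, Ctsc, with 11.7 to 19.4 in LFABP-/- and 21.2 to 39.0 in WT mice (-0.80, adjusted p = 0.022). Of 8 target genes tested, Tcf7 fell (-0.45, adjusted p = 0.0677, called in 5 of 10 fits with 1 mouse left out) and Axin2, at 2.3 to 4.4 in LFABP-/- and 3.0 to 5.6 in WT liver, was not called.

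**Figure D5:**
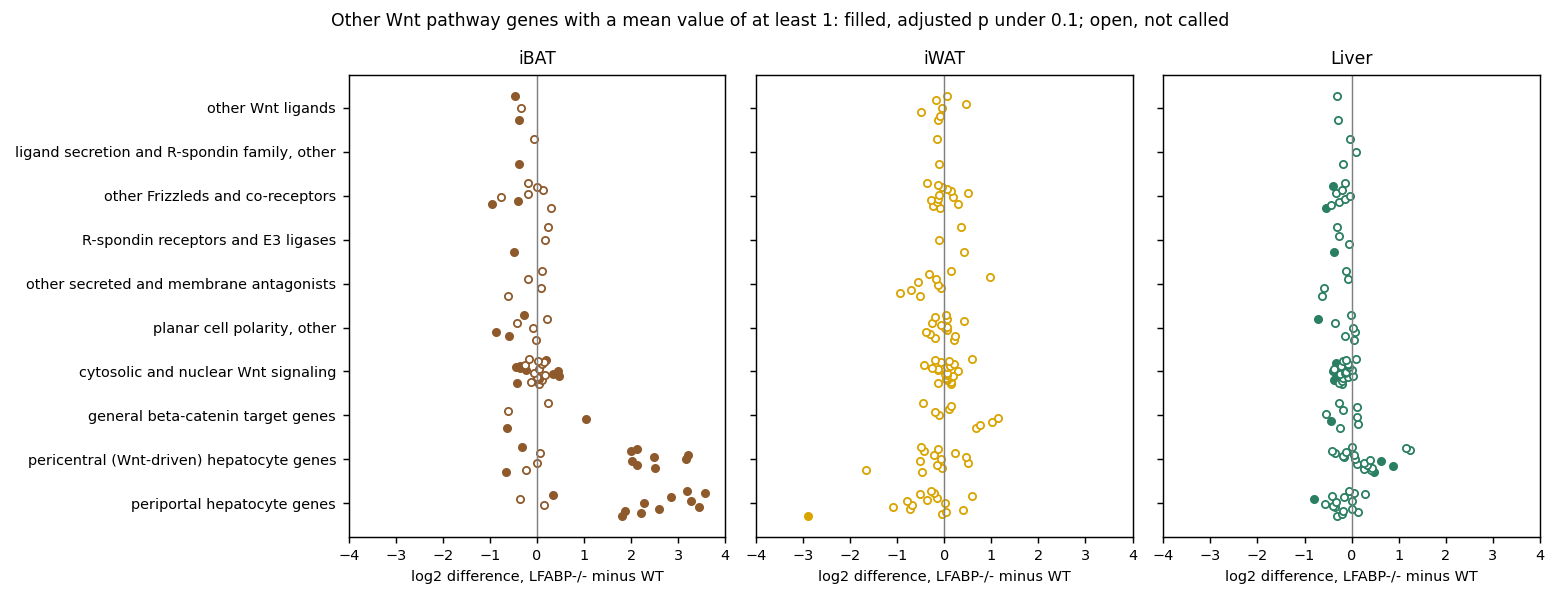
Log2 difference of LFABP-/- minus WT for the other Wnt pathway genes that were fitted, by list and tissue; each point is a gene, filled where its adjusted p was under 0.1. Hepatocyte genes spread up to 3.56 in iBAT, where Fzd7, Prickle3 and Axin2 are filled below 0, the 1 filled point in iWAT is Cyp2f2, and in liver Lect2, Oat and Glul are the filled points above 0.

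The genes most like Rspo4 over the 10 iBAT libraries, by Pearson's r of log2 values across 11613 genes, were Npr3 (0.983), Hk1 (0.979) and Wwc1 (0.973). Npr3, the natriuretic peptide clearance receptor, was 77.7 to 105.8 in LFABP-/- and 6.3 to 13.9 in WT iBAT, and Hk1, a hexokinase, 37.0 to 46.5 and 8.7 to 12.8. The genes most like Celsr2 over the 10 iWAT libraries were Slc39a8 (0.959), Slc38a7 (0.951) and Gm28875 (0.947), and those most like Fzd1 over 30 libraries, after each tissue's mean was subtracted, were Slc27a1 (0.868), Sctr (0.855) and Pigl (0.852). Slc27a1, a fatty acid transporter, was 164.7 to 279.7 in LFABP-/- and 344.9 to 771.8 in WT iWAT. These points share their libraries and the split into genotypes, and the correlations are a description only.

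Within 500 kb of Rspo4, 11 other genes were tested in iBAT, of which 5 were called higher and 2 lower, beside 22.3% and 25.5% of all genes, and none of 13 was called in iWAT. Within 500 kb of Celsr2, none of 25 other genes tested was called in iWAT, and around Fzd1 the 1 gene tested there was not called. The window was chosen after seeing the data.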

How the data were processed

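RNA from iBAT, iWAT and liver of 5 LFABP-/- and 5 WT male mice was sequenced, 30 libraries in all. The authors selected poly(A) RNA, mapped single reads to GRCm38 with Ensembl gene models in CLC Genomics Workbench, and deposited 1 table whose headers say RPKM. The deposited values sum to between 999967.3 and 999996.4 per library, so they are on the TPM scale, which keeps no depth, and no count test or counting interval was possible. Values are rounded to 1 decimal. Groups came from the labels.

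Genotypes were compared within each tissue with limma 3.58.1 in R 4.3.3 on log2(value + 0.5), with an intensity trend, for genes with a mean of 1 or more, two-sided, adjusted by Benjamini and Hochberg over all genes tested and called under 0.1. Tissues were compared in 1 limma fit of 30 libraries, rescaled without mitochondrially encoded genes. Mouse entered that fit as a random effect through statmod 1.5.0 (correlation 0.0068). The procedure was tested on simulated data. The genes and lists were chosen with earlier results of these data known. Named are all 10 genes; in each list and tissue up to 4 called genes with the smallest p; Fabp1 and Nnt; and the 3 genes most like Rspo4, Celsr2 and Fzd1. Other genes named (Znrf3, Lgr5, Lrp5, Rspo2, Sfrp2, Celsr1, Cyp2e1, Aldh1b1, Fzd7 and Fzd8 in liver, Axin2 in iWAT and liver) were added after their values were seen. Alternatives changed the pseudocount, filter, scaling, name prefix of the mouse (from its iBAT and liver names), marker covariates and libraries. Promoters are from RefSeq. Figures were made with Python 3.11.15 and matplotlib 3.10.9.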

Additional observations from a re-analysis of the deposited data

Results flagged for a closer look

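Of 38 groups of 5 mice examined for single values far from the rest, 2 held one, and chance gives about 1 in 20 groups. Sfrp5 was 517.2 in WT iWAT replicate 1, against 143.0 to 184.2 in the other WT mice. Wnt2 was 3.9 in WT liver replicate 3, against 3.0 to 3.1 in the other WT mice.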

How the results depend on the processing

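For the genotype differences of the 10 genes, 357 of 359 values under the alternatives moved by less than 1 SD; the exceptions came with the hepatocyte covariate in iBAT, chosen after seeing the data (Rspo4 3.07, Fzd4 -0.39). Fzd4 in iWAT (-0.08) was 0.045 with the lymphocyte covariate. Called genes in iBAT were 5556 (4880 to 5834 with 1 mouse left out, 485 with the hepatocyte covariate). In iWAT they were 213 (51 without WT replicate 5 to 318 without WT replicate 1), 135 with no filter, 114 under median-ratio scaling, 1335 and 54 with the lymphocyte and skeletal muscle covariates, and 6 in the libraries with low lymphocyte markers. In liver they were 1969 (746 without WT replicate 2 to 2150 without WT replicate 4), and 1208 after rescaling without mitochondrially encoded genes, 439 higher and 769 lower.

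Replicate numbers name different mice in the 2 genotypes, and same-numbered libraries correlated at -0.53 to 0.51 in iBAT, -0.33 to 0.67 in iWAT and -0.06 to 0.13 in liver. With the replicate number as a block, calls were 5661 in iBAT, 248 in iWAT and 1258 in liver. Without the block on the mouse, the tissue counts did not change.

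Between tissues, calls in iBAT minus iWAT were 5741 (1242 higher, 4499 lower; 5458 to 5972 with 1 mouse left out), 9842 in the values as deposited (561 and 9281) and 4153 under median-ratio scaling (1915 and 2238). In liver minus iBAT they were 7831 (1774 and 6057; 7729 to 8001), 5312 as deposited (2838 and 2474) and 5484 under median-ratio scaling (2723 and 2761). In liver minus iWAT they were 10352 (1350 and 9002; 10054 to 10537), and 5816 under median-ratio scaling (2799 and 3017). Of 540 tissue differences of the 10 genes under alternatives, 8 changed sign. These were Rspo1 in iBAT minus iWAT in LFABP-/- mice only (0.061); Fzd1 in liver minus iBAT (0.26 as deposited, 0.17 under median-ratio scaling) and Lrp6 (0.14 and 0.035); Rspo4 (0.0012) and Lrp6 (0.019) in liver minus iWAT under median-ratio scaling, and Wnt2 there in WT mice only (-0.18). None of these 8 was called under the setting named, though Lrp6 in liver minus iWAT was called in the main fit and so lost its call. The cause was not tested beyond these settings. A further 5 gained a call (Rspo1, Lrp6 and Sfrp1 in iBAT minus iWAT as deposited, Rspo3 there with a pseudocount of 0.1, Wnt2 in liver minus iWAT under median-ratio scaling). Another 5 lost their call with the sign unchanged, all of Rspo1.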
